A study of Homo sapiens with 48 samples.

Results

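The ID and Notch pathway genes described here are 10 genes, chosen by name: the inhibitor of differentiation genes ID1, ID2, ID3 and ID4, the repressor genes HES1, HES6 and HEY1, the ligand genes DLL1 and DLL3, and the receptor gene NOTCH1. All 10 were found, once each, among the 19923 gene names of the count tables. All 10 passed the filter on low counts in both cell lines. In Kelly, NOTCH1 had few or no counts, and its highest counts, 16 and 12, were in libraries given actinomycin D for 3 h. The samples were 48 libraries of poly(A) RNA from Kelly and NGP, 2 human neuroblastoma cell lines that both carry amplified MYCN and are both labelled wild type. Each line was grown for 3 or 6 days with 8 µM STM2457, an inhibitor of the RNA methyltransferase METTL3, or with the solvent DMSO. Actinomycin D at 10 µg/ml, which blocks transcription, was then given for 0, 3 or 6 h. Each of the 24 combinations of line, days, compound and hours had 2 libraries. No genetic change separated the groups, so every comparison within a line was between treatments of the same wild-type cells, and each line stands for 1 tumour's cells. The labels do not say whether the 2 libraries of a group came from separate cultures, so the p-values measure only the spread between these libraries, which may be technical.

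Notch receptors are activated by Delta and Jagged ligands on neighbouring cells, are cut, and release an intracellular domain that turns on HES and HEY genes together with the DNA-binding protein RBPJ. HES1 and HEY1 are repressors that hold down proneural genes, while HES6 opposes HES1 and is itself high in differentiating neural cells. ID proteins lack a DNA-binding region and tie up the E proteins that proneural factors need as partners. BMP signalling through SMAD proteins is a main activator of ID genes. STM2457 lowers N6-methyladenosine (m6A), a mark on mRNA that is known to affect how long a transcript lives, which is why level and decay were both read.

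Several of these mRNAs are known to be short-lived, and the sequence ATTTA, the core of AU-rich elements, is a known feature of short-lived transcripts. The matches below are from the 3′ untranslated regions (UTRs) of the hg38 genome with GENCODE 44 transcript models. They are shown because the 3 ID genes fell under actinomycin D, while DLL3 and NOTCH1 did not fall on the same scale. Each line runs 5′ to 3′, and capitals mark the motif.
ID1, chr20:31606491-31606510, plus strand: aacaaataATTTAgatggtg
ID2, chr2:8683879-8683899, plus strand: tattcgttATTTAtgaaaaag
ID2, chr2:8684118-8684138, plus strand: gtgtatatATTTAtatataaa
ID2, chr2:8684399-8684419, plus strand: aagttcaaATTTAtgtagact
ID3, chr1:23558053-23558073, minus strand: ttgccctgATTTAtgaactct
DLL3, chr19:39508396-39508416, plus strand: taatggttATTTAtatcctat
NOTCH1, chr9:136495709-136495729, minus strand: tgccatTTATTTATTgattcc

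The motif ATTTA was searched on the transcript strand only. It was present 1 time in the 416-base 3′ UTR of ID1, 3 times in the 784 bases of ID2 and 1 time in the 515 bases of ID3. It was present 6 times in ID4, 7 times in HEY1, 3 times in DLL1, 1 time in DLL3 and 6 times in NOTCH1, and no match was found in HES1 or HES6. Over 18469 transcripts, 68.4% held ATTTA, with a median 3′ UTR of 1092 bases. The longer form TTATTTATT contains ATTTA, was found 1 time in NOTCH1, and was held by 8.50% of transcripts. ID1 and ID3, which fell, and DLL3, which was not called lower at 6 h relative to the typical gene, each had 1 match. The 3′ UTR of DLL3 was the shorter, at 212 bases. Any part of the motif in these changes was not tested.

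A stretch of the HES1 promoter is shown because HES1 is the best-known target of Notch signalling. It lies at chr3:194136038-194136097 on the plus strand of the RefSeq promoter table's hg38 build, upstream of the transcript start. Capitals mark TGGGAA, the core bound by RBPJ, and the G before the first of the matches.
HES1: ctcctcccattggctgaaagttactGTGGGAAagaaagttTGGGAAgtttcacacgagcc
The matches start 84 and 70 bases before the transcript start. Promoter entries were matched for 7 of the 10 genes, and those of HEY1, DLL1 and DLL3 had no entry. TGGGAA was searched on both strands of each 300-base promoter, and no match was found in the other 6. It was held by 24.03% of the 35116 promoters in the table, and GTGGGAA, which contains it, by 6.25%.

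Sequencing gave 11139550 to 21942238 gene fragments per library, with 0.265 to 0.671% of fragments on the ERCC spike-in RNAs and 3.22 to 7.38% on mitochondrial genes. Counts of the 2 libraries of a group differed by more than counting noise in all 24 groups, with chi-square values of 6.78 to 22.0 per degree of freedom. The 12 adrenergic neuroblastoma marker genes had summed levels of 9753 to 15766 CPM (counts scaled to a common library size) in Kelly and 2986 to 11325 CPM in NGP. CHGA and MYCN made up much of these sums, at means of 6380 and 2071 CPM in Kelly and 953 and 2818 CPM in NGP. Not all of the 12 were high. TH averaged 408 CPM in Kelly and 0.869 CPM in NGP, and DBH 1472 and 134 CPM. The mesenchymal markers summed to 100 to 279 CPM in Kelly and 217 to 476 CPM in NGP. Schwann cell markers reached at most 7.95 CPM and immune markers at most 11.6 CPM. CPM values below are scaled by the trimmed mean of M-values (TMM) over all 48 libraries, so they are relative to the typical gene.

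In DMSO cells before actinomycin D the order of the members, per kilobase of exon, differed between the lines. In Kelly, ID3 and ID2 led, at means of 24.04 and 24.03 CPM per kilobase, over 4 libraries from 3 and 6 days that ranged from 11.1 to 37.5 and from 11.7 to 38.8. Both stood at percentile 91.4 of the 16670 genes measured there. DLL3 followed at 9.45, then HES6 at 7.06, ID1 at 5.63 and HEY1 at 4.28 CPM per kilobase. The 4-library ranges of ID2 and ID3 overlapped each other and lay above that of DLL3, while those of DLL3, HES6 and ID1 overlapped. ID4 (0.924), DLL1 (0.918) and HES1 (0.539) were low and overlapped in range, and NOTCH1 was last at 0.0118 CPM per kilobase.

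In NGP, with both times pooled, HES6 had the highest mean, 44.4 CPM per kilobase (4 libraries, 29.2 to 62.7), percentile 95.6 of 15714 genes. ID2 at 23.8 and DLL3 at 23.5 followed, then ID1 at 12.3, ID3 at 10.3 and NOTCH1 at 4.91 CPM per kilobase. The ranges of HES6 and ID2 overlapped, as did those of ID2 and DLL3 and those of ID1, ID3 and NOTCH1. DLL1 (2.93), HEY1 (1.32), ID4 (1.31) and HES1 (0.641) came last. The order moved with time. ID2 at 34.5 and HES6 at 33.1 CPM per kilobase were the top genes at 3 days in NGP, with overlapping libraries, and HES6 at 55.8 was ahead of DLL3 at 25.0 and ID2 at 13.1 at 6 days. In Kelly, ID3 and ID2 were at 36.5 and 35.6 at 3 days and at 11.5 and 12.4 at 6 days, first in both cases.

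**Figure D1:**
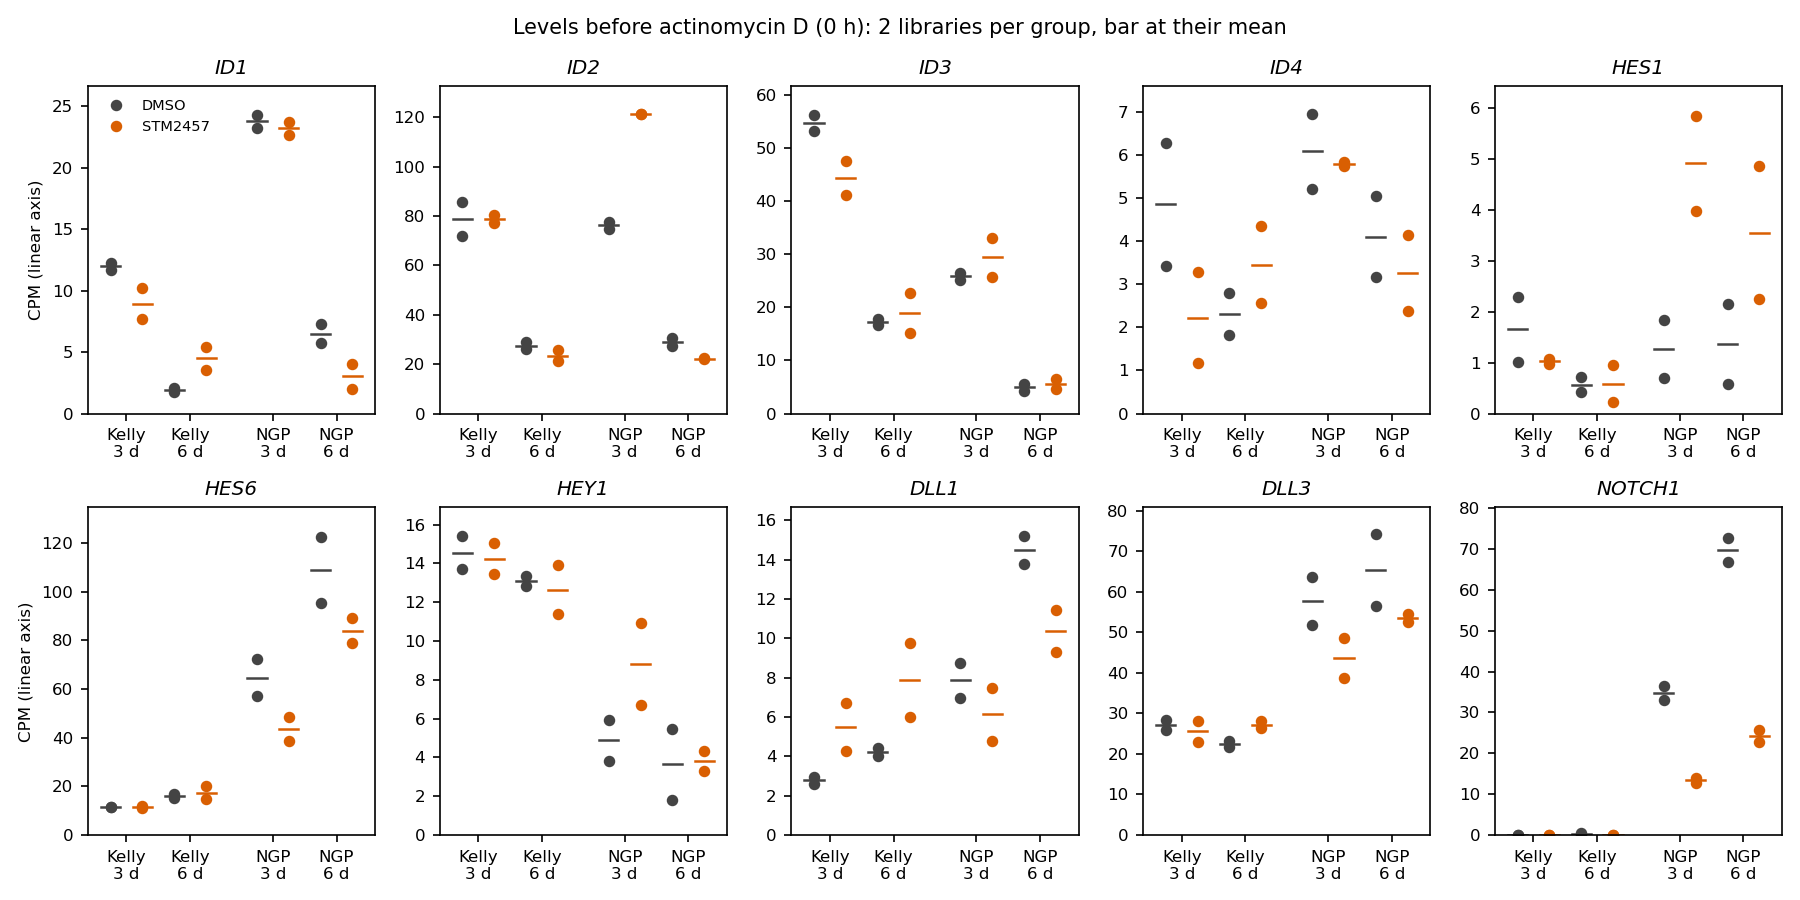
Level of each of the 10 genes before actinomycin D, in CPM on a linear axis, for Kelly and NGP at 3 and 6 days. Points are single libraries (2 per group), short lines mark their mean, dark grey is DMSO and orange is STM2457. NOTCH1 is near 0 in Kelly, and its 4 STM2457 libraries in NGP (12.7 to 25.6 CPM) lie below the 4 DMSO libraries (33.2 to 72.7 CPM).

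NOTCH1 (chromosome 9, 136494433 to 136546048, minus strand, hg38), the receptor, was almost absent from Kelly. It had 0 counts in 14 of the 24 Kelly libraries, at most 16 counts in any, and 52 counts in all. In NGP DMSO cells it stood at 36.5 and 33.2 CPM at 3 days and at 66.9 and 72.7 CPM at 6 days. Against the floor of 3 counts in each Kelly library at 3 days, where all counts were 0, NGP was at least 173-fold higher. In bulk RNA, fewer expressing cells and less RNA per cell cannot be told apart, here or in any result that follows.

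Of the 10 genes, 4 differed between the lines at 3 days (3 higher and 1 lower in NGP) and 6 at 6 days (4 higher and 2 lower) at an adjusted p under 0.05. The test was the quasi-likelihood F-test of edgeR, adjusted by the Benjamini-Hochberg method over all genes, and a call is by this test where no other is named. Over all genes tested, 30% and 31.6% were called. HES6 (chromosome 2, 238238267 to 238240662, minus strand) was 57 and 72.3 CPM in NGP against 11.7 and 11.4 CPM in Kelly at 3 days. The lines did not overlap, and the log2 difference was 2.49 ± 0.24 (SE) at 3 days and 2.76 ± 0.23 at 6 days, a 5.60-fold and a 6.79-fold higher level in NGP. DLL3 (chromosome 19, 39498895 to 39508481, plus strand), a ligand of the Delta family that acts mainly to restrain Notch within the cell, was 63.6 and 51.7 CPM in NGP against 25.8 and 28.3 CPM in Kelly at 3 days. Its log2 difference was 1.09 ± 0.20 at 3 days and 1.54 ± 0.20 at 6 days.

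HEY1 (chromosome 8, 79764010 to 79767857, minus strand) ran the other way. It was 15.4 and 13.7 CPM in Kelly at 3 days and 3.83 and 5.95 CPM in NGP, a log2 difference of −1.57 ± 0.59 (edgeR adjusted p = 0.0332). At 6 days it was −1.84 ± 0.59 (edgeR adjusted p = 0.0110). The 3-day call was lost in each of 4 refits that left out 1 library (−1.92 to −1.29), and the 6-day call was lost without replicate 2 of NGP DMSO. Without replicate 1 of that group the 6-day difference was −2.85.

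ID3 (chromosome 1, 23557926 to 23559501, minus strand) was lower in NGP at 6 days, at 4.32 and 5.61 CPM against 16.7 and 17.9 CPM, a log2 difference of −1.80 ± 0.49 (edgeR adjusted p = 0.00244). At 3 days the difference of −1.08 ± 0.47 was not called by edgeR (adjusted p = 0.076), but was by limma-voom, with no filter and on 3-day libraries alone. DLL1 (chromosome 6, 170282206 to 170306565, minus strand), the ligand that activates Notch on neighbouring cells, was 13.8 and 15.2 CPM in NGP at 6 days against 4.44 and 4.03 CPM in Kelly. Its log2 difference of 1.77 ± 0.71 (edgeR adjusted p = 0.0485) was lost in each of 4 refits without 1 library (1.70 to 1.84). DLL1 shares 370 exon bases, 9.69% of its exons, with FAM120B on the opposite strand, and no strand setting is recorded for the counting. ID2 (chromosome 2, 8678845 to 8684461, plus strand) differed by −0.05 and 0.08 between the lines and was not called.

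ID2 and ID3 were lower at 6 days than at 3 days in DMSO cells of both lines, and ID1 was lower in NGP. The ID4 changes of −1.09 ± 1.08 in Kelly and −0.59 ± 0.70 in NGP were not called. ID2 was 85.8 and 71.9 CPM at 3 days and 26 and 29.1 CPM at 6 days in Kelly, and 75 and 77.6 CPM against 30.4 and 27.5 CPM in NGP. The log2 changes were −1.54 ± 0.31 (edgeR adjusted p = 5.59e-05) and −1.41 ± 0.22. ID3 fell from 56.2 and 53.2 CPM to 16.7 and 17.9 CPM in Kelly (−1.68 ± 0.37) and from 25.1 and 26.5 CPM to 4.32 and 5.61 CPM in NGP (−2.40 ± 0.52). In each of these sets the 3-day and 6-day libraries did not overlap.

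ID1 (chromosome 20, 31605283 to 31606515, plus strand) fell in NGP from 23.3 and 24.3 CPM to 7.25 and 5.74 CPM, a log2 change of −1.89 ± 0.49 (edgeR adjusted p = 0.00368). In Kelly its values were 12.3 and 11.7 CPM at 3 days and 2.05 and 1.76 CPM at 6 days, without overlap. That change of −2.66 ± 0.93 missed the threshold (edgeR adjusted p = 0.054) and was called by DESeq2, by limma-voom and with the replicate block (edgeR adjusted p = 0.0411). The ID1 call in NGP was lost without replicate 2 of DMSO at 6 days, and the ID2 call in Kelly was lost under DESeq2 (adjusted p = 0.0682).

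In NGP, 2 members rose with time in DMSO. NOTCH1 was 0.99 ± 0.21 higher on the log2 scale at 6 days, a 1.98-fold rise, and HES6 rose from 57 and 72.3 CPM to 95.3 and 123 CPM (0.73 ± 0.16). The HES6 call was lost without replicate 2 of DMSO at 6 days. Of the 10 genes, 2 in Kelly (both lower) and 5 in NGP (2 higher, 3 lower) changed with time, where 8.52% and 12.1% of all genes did. The 3-day and 6-day cells are separate groups, and how they were seeded or fed is not in the labels, so time in STM2457 or DMSO and time in culture cannot be told apart.

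STM2457 lowered NOTCH1 in NGP at both times. NOTCH1 at 3 days stood at 36.5 and 33.2 CPM in DMSO (467 and 451 counts) and 12.7 and 14.1 CPM with STM2457 (202 and 216 counts). At 6 days it was 66.9 and 72.7 CPM in DMSO and 22.8 and 25.6 CPM with STM2457. The groups did not overlap at either time. The log2 change was −1.39 ± 0.22 at 3 days, 2.62-fold lower (edgeR adjusted p = 4.01e-06), and −1.52 ± 0.21 at 6 days, 2.88-fold lower (edgeR adjusted p = 3.10e-08). Both calls held in every refit run, including each that left out 1 library.

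HES6 was also lower with STM2457 in NGP at 3 days, at 48.5 and 38.6 CPM against 57 and 72.3 CPM in DMSO, without overlap. The log2 change was −0.58 ± 0.16, 1.49-fold lower (edgeR adjusted p = 0.0249). It was not called when scaled to the spike-ins (−0.47), by limma-voom, when fitted on 3-day libraries alone (−0.57), or without replicate 2 of either group (−0.76 to −0.40 over the left-out libraries). At 6 days HES6 was 78.7 and 89.2 CPM with STM2457 against 95.3 and 123 CPM, a log2 difference of −0.37 ± 0.16 that was not called (edgeR adjusted p = 0.17).

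These 3 made up the calls among the 40 tests of STM2457 at 0 h. Of the 10 genes, 0 were called in Kelly at either time, while NGP had 2 at 3 days and 1 at 6 days. NOTCH1, called in NGP at both times, could not be decided in Kelly. Its 0 h libraries there all had 0 counts at 3 days. At 6 days they had 1 and 7 counts in DMSO and 0 and 2 with STM2457. Over all genes tested the shares called were 1.68% and 3.97% in Kelly and 3.7% and 7.99% in NGP. For Kelly, DESeq2 and limma-voom also called 0, and edgeR gave 0 unadjusted p-values under 0.05.

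ID2 stood near the threshold in NGP. It was 121 CPM in both STM2457 libraries at 3 days against 75 and 77.6 CPM in DMSO. The log2 difference of 0.66 ± 0.21 was not called by edgeR (adjusted p = 0.064), but was called by DESeq2 (adjusted p = 0.0103), by limma-voom (adjusted p = 0.000113), and by edgeR when scaled by library size, scaled to the spike-ins or fitted on 3-day libraries alone. At 6 days the STM2457 libraries, at 22.2 and 22.3 CPM, lay below DMSO at 30.4 and 27.5 CPM, with a log2 difference of −0.38 ± 0.22 (edgeR adjusted p = 0.4).

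HES1 (chromosome 3, 194136148 to 194138732, plus strand) was low, and its libraries did not overlap in NGP. It had 9 and 25 counts in DMSO and 93 and 61 with STM2457 at 3 days (0.703 and 1.84 CPM against 5.84 and 3.97 CPM). At 6 days it had 39 and 9 counts in DMSO and 84 and 34 with STM2457 (2.16 and 0.58 CPM against 4.86 and 2.24 CPM). The log2 differences of 1.94 ± 1.25 and 1.37 ± 1.22 were not called by edgeR (adjusted p = 0.58 at 3 days). In Kelly, HES1 had 0 counts in 10 of 24 libraries and 165 counts in all.

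DLL1 in Kelly was 2.6 and 2.95 CPM in DMSO and 6.69 and 4.25 CPM with STM2457 at 3 days, and 4.44 and 4.03 CPM against 9.78 and 6 CPM at 6 days. The STM2457 libraries lay above DMSO both times. The log2 differences of 0.97 ± 0.86 and 0.92 ± 0.85 were not called. DLL3 in NGP was 48.6 and 38.6 CPM with STM2457 at 3 days against 63.6 and 51.7 CPM in DMSO, a log2 difference of −0.41 ± 0.16 (edgeR adjusted p = 0.18). ID1 in NGP at 6 days was 4.05 and 1.98 CPM with STM2457 against 7.25 and 5.74 CPM in DMSO, a log2 difference of −1.10 ± 0.50 (edgeR adjusted p = 0.21). Neither pair of groups overlapped, and neither was called.

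The other members showed smaller or less even differences. ID3 differed by −0.31 and 0.16 in Kelly and by 0.18 and 0.16 in NGP, on the log2 scale. HEY1 differed by −0.04 and −0.03 in Kelly, and by 0.84 ± 0.64 in NGP at 3 days, where it was 6.72 and 10.9 CPM with STM2457 against 3.83 and 5.95 CPM. ID4 (chromosome 6, 19837370 to 19842197, plus strand), the lowest of the ID genes in Kelly, lay between 1.18 and 6.95 CPM in every 0 h library of both lines.

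**Figure D2:**
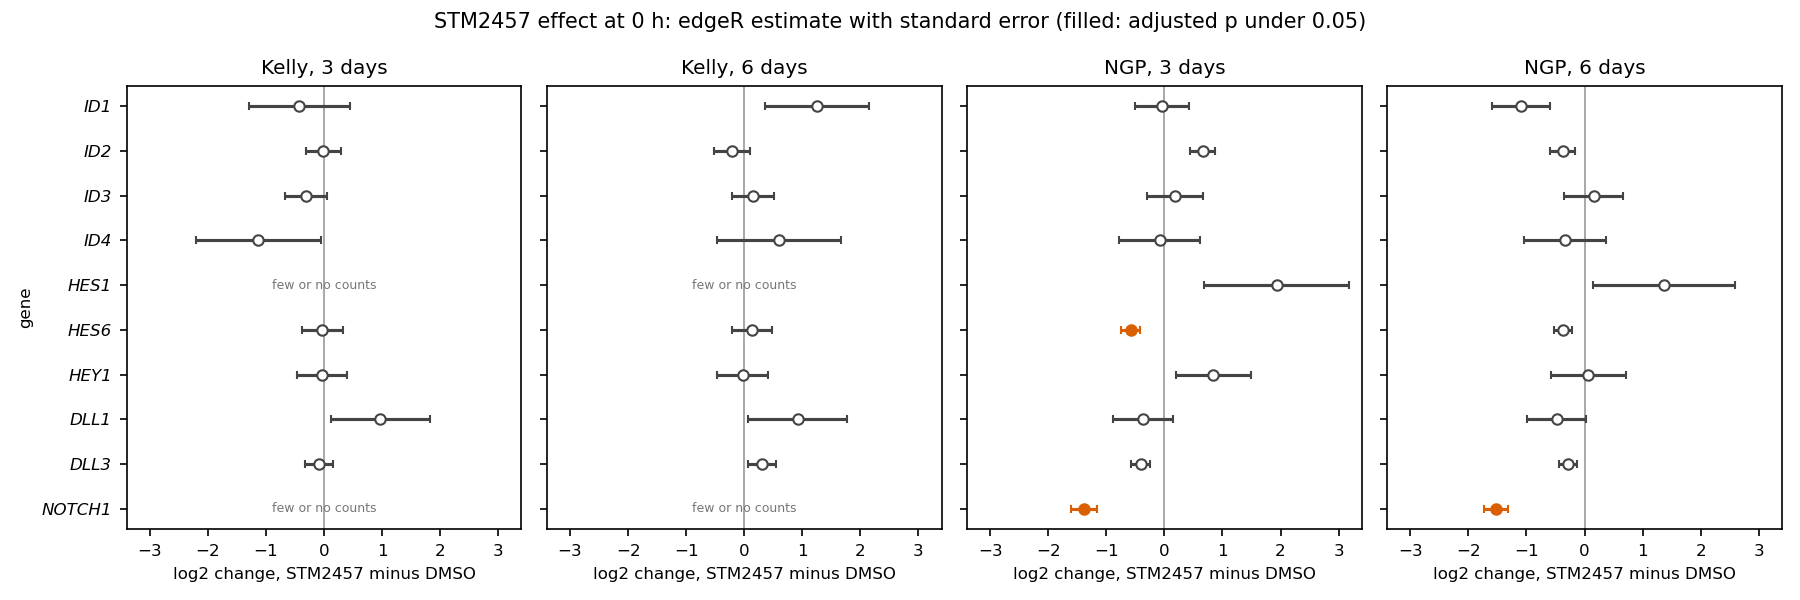
Log2 difference, STM2457 minus DMSO, before actinomycin D for the 10 genes in 4 comparisons, with bars of 1 SE. Filled orange points have an edgeR adjusted p under 0.05. NOTCH1 in NGP stands lowest among the called points, at −1.39 and −1.52, and HES1 and NOTCH1 in Kelly are marked as having few or no counts.

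The effect of STM2457 on ID2 in NGP differed between 6 and 3 days, by −1.04 ± 0.31 on the log2 scale (edgeR adjusted p = 0.0402). It was the only such difference called among the members, with 1 of 10 in NGP and 0 of 10 in Kelly, against 2.8% and 0.788% of all genes. The call was lost in each of 8 refits that left out 1 of the NGP libraries (−1.11 to −0.97). The 0 in Kelly was 0 with DESeq2 and limma-voom too, and at an unadjusted edgeR p under 0.05. With few or no counts, NOTCH1 could not be decided there.

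Between the lines, 0 of 20 tests of the difference in STM2457 effect were called by edgeR, by DESeq2 or by limma-voom, where 0.161% of all genes were called at 3 days and 1.75% at 6 days. With edgeR, 2 had an unadjusted p under 0.05, both at 6 days: ID1 at −2.34 ± 1.08 and DLL3 at −0.57 ± 0.28, NGP minus Kelly. NOTCH1 could not be compared in this way, since it had few or no counts in Kelly.

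Under actinomycin D, ID2 and ID3 fell in every line, time and treatment. In Kelly DMSO cells at 3 days, ID2 went from 85.8 and 71.9 CPM at 0 h to 2.46 and 12.9 CPM at 3 h and 5.68 and 2.59 CPM at 6 h. In NGP DMSO cells at 3 days it went from 75 and 77.6 CPM to 16.5 and 20.8 CPM and then 7.84 and 11.1 CPM. The 0 h libraries lay above all others in both lines. The 6 h change was −4.25 ± 0.36 in Kelly, which left 5.26% of the starting level, and −3.03 ± 0.24 in NGP, which left 12.3%. At 6 days it was −2.18 ± 0.33 in Kelly (22.0% left) and −2.37 ± 0.24 in NGP (19.3% left). These shares are of a level relative to the typical gene, not of molecules.

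ID3 went from 56.2 and 53.2 CPM to 4.06 and 3.03 CPM at 3 h and 1.54 and 1.02 CPM at 6 h in Kelly DMSO cells at 3 days. The 6 h change of −5.40 ± 0.46 left 2.36%. At 6 days in Kelly it was −3.56 ± 0.43 (8.50% left), and in NGP it was −3.12 ± 0.54 at 3 days (11.5% left) and −2.74 ± 0.59 at 6 days (14.9% left). The NGP value at 6 days was −4.30 without replicate 2 at 6 h, and stayed called. With STM2457 in NGP at 6 days the change was −1.67 ± 0.55. There replicate 2 at 6 h stood at 3.2 CPM and replicate 1 at 0.516 CPM, and the change was −0.81 without replicate 1 and −3.43 without replicate 2. DESeq2 and a fit on 6-day libraries alone did not call it.

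ID1 fell in 3 of the 4 DMSO sets. In NGP at 3 days it went from 23.3 and 24.3 CPM to 2.87 and 7.29 CPM at 3 h and 2.63 and 3 CPM at 6 h, a 6 h change of −3.08 ± 0.52 (11.8% left). In NGP at 6 days the change was −1.57 ± 0.51 (33.6% left). That call was lost without replicate 1 at 0 h or replicate 2 at 6 h (−1.01), and the change was −2.65 without replicate 1 at 6 h. In Kelly at 3 days ID1 went from 12.3 and 11.7 CPM to 0.49 and 0 CPM at 6 h (7 and 0 counts), a change of −5.57 ± 1.12 that ranged from −10.66 to −4.59 over the left-out libraries. The lower end was reached without replicate 1 at 6 h, which left only a library at 0. In Kelly at 6 days ID1 was low before actinomycin D, at 2.05 and 1.76 CPM, and its change of −0.45 ± 0.91 was not called.

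With STM2457 ID2 and ID3 fell in both lines as well. The ID2 changes after 6 h were −3.83 (Kelly, 3 days), −1.78 (Kelly, 6 days), −3.44 (NGP, 3 days) and −2.90 (NGP, 6 days). ID3 was −4.80 and −3.27 in Kelly and −3.57 in NGP at 3 days. ID1 was −3.19 and −2.50 ± 0.61 in NGP, both called. In Kelly with STM2457, ID1 was −1.59 ± 0.90 at 3 days (edgeR adjusted p = 0.2) and −4.55 ± 1.10 at 6 days, the latter −9.24 without replicate 1 at 6 h, which left a library with 0 counts. ID4 was called in 1 set, NGP with STM2457 at 3 days, where it went from 5.84 and 5.73 CPM to 1.41 and 0.778 CPM (−2.42 ± 0.75), a call lost without replicate 2 at 6 h. In DMSO its 6 h libraries there were 4.86 and 0.461 CPM, on either side of those values.

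HES6 moved far less. In NGP DMSO cells it was 57 and 72.3 CPM at 0 h, 49.9 and 53.8 CPM at 3 h and 41 and 33.4 CPM at 6 h at 3 days, and 95.3 and 123 CPM, 72.1 and 72.2 CPM and 53.3 and 70.2 CPM at 6 days. The 6 h libraries lay below the 0 h libraries at both times. The 6 h changes were −0.80 ± 0.17 (57.3% left) and −0.86 ± 0.16 (55.1% left). In Kelly DMSO cells the changes were 0.01 and 0.22 and were not called. With spike-in scaling the second of these was −1.06 and was called lower. With STM2457 in Kelly at 3 days, HES6 went from 11.8 and 10.9 CPM to 4.47 and 7.02 CPM at 6 h (−0.98 ± 0.36, edgeR adjusted p = 0.0304), a call lost in 3 of 4 refits without 1 library (−1.34 to −0.69).

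HES1 in NGP DMSO cells at 3 days had 9 and 25 counts at 0 h and 0 and 0 counts at 6 h (edgeR adjusted p = 0.0029). With STM2457 at 6 days it went from 4.86 and 2.24 CPM to 0.258 and 0.0969 CPM, a change of −4.24 ± 1.44 that was lost in 3 of 4 refits without 1 library (−5.11 to −3.58). HEY1 fell at 6 h in Kelly DMSO cells at 3 days, from 15.4 and 13.7 CPM to 8.06 and 1.71 CPM (−1.57 ± 0.45). The change was −3.08 without replicate 1 at 6 h, and −0.85 and no longer called without replicate 2. In NGP DMSO cells at 6 days it was −2.66 ± 0.73 (15.8% left), and −1.66 and not called without replicate 1 at 0 h.

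DLL1 fell at 6 h in NGP, from 13.8 and 15.2 CPM to 4.03 and 3.85 CPM in DMSO at 6 days (−1.92 ± 0.53, 26.5% left) and by −2.10 ± 0.55 with STM2457. The 0 h and 6 h libraries did not overlap. At 3 days in DMSO it was 8.75 and 6.98 CPM at 0 h and 4.27 and 2.54 CPM at 6 h, and the change of −1.21 ± 0.53 was not called by edgeR (adjusted p = 0.068). DESeq2 called it (−1.22), as did edgeR with library-size (−1.46) or spike-in scaling. With STM2457 at 3 days the change was −2.92 ± 0.59. In Kelly DMSO cells at 3 days DLL1 went from 43 and 44 counts to 0 and 18 at 6 h, which edgeR did not call. It was called lower by DESeq2 (−2.14), by limma-voom (−3.71), and by edgeR with library-size (−2.34) or spike-in scaling (−2.58). In Kelly DMSO cells at 6 days it was called lower with spike-in scaling (−2.51).

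DLL3 and NOTCH1 were not called lower at 6 h relative to the typical gene. NOTCH1 in NGP DMSO cells was 36.5 and 33.2 CPM at 0 h and 32.5 and 30.4 CPM after 6 h at 3 days, and 66.9 and 72.7 CPM against 65.9 and 62.6 CPM at 6 days. The change was −0.16 ± 0.21 and −0.16 ± 0.20, and neither was called. With spike-in scaling the changes were −0.96 and −1.21, both called lower. At 3 h in NGP DMSO cells at 3 days NOTCH1 was not called, though its unadjusted edgeR p was under 0.05. There it was called lower with library-size scaling (−0.58) and with spike-in scaling (−0.80). DLL3 in NGP DMSO cells at 3 days was 63.6 and 51.7 CPM at 0 h and 71 and 81.6 CPM at 6 h, a change of 0.39 ± 0.16 (edgeR adjusted p = 0.0454). That call turned to −0.41, also called, with spike-in scaling, and was lost without replicate 2 at 0 h (0.25) or replicate 2 at 6 h. It was also lost with RLE size factors (0.39), library-size scaling (0.14), no filter (0.36), DESeq2 (0.39) and 3-day libraries alone (0.36). In Kelly DMSO cells at 6 days DLL3 was 23.1 and 21.8 CPM at 0 h and 36.8 and 39.1 CPM at 6 h, a change of 0.75 ± 0.24 (edgeR adjusted p = 0.0109). It turned to −0.52 with spike-in scaling, and the call was lost with library-size scaling (0.57) and in 3 of 4 refits without 1 library (0.71 to 0.80).

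The choice of scale matters for every sign near 0. With the spike-ins as the scale, the median gene in DMSO cells changed by −0.34 and −1.18 in Kelly and by −0.81 and −1.10 in NGP after 6 h, at 3 and 6 days, where TMM sets it near 0. Relative to those medians, ID2 was −4.34 and −2.28 in Kelly and −3.03 and −2.32 in NGP. ID3 was −5.49, −3.65, −3.11 and −2.70 in the same order, so both fell further than the typical gene on either scale. DLL3 was −0.00, 0.65, 0.40 and −0.02 relative to the same medians, and NOTCH1 in NGP was −0.15 and −0.11. The summed level of the adrenergic markers moved too, and more in NGP. In Kelly DMSO cells at 3 days it was 14964 and 15766 CPM at 0 h and 11686 and 11859 CPM at 6 h. At 6 days it was 12997 and 13408 CPM, then 10584 and 10742 CPM. In NGP it was 8481 and 8609 CPM, then 2986 and 3089 CPM, at 3 days. At 6 days in NGP it was 9164 and 11325 CPM, then 3384 and 3572 CPM. Its part in these results was not tested.

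**Figure D3:**
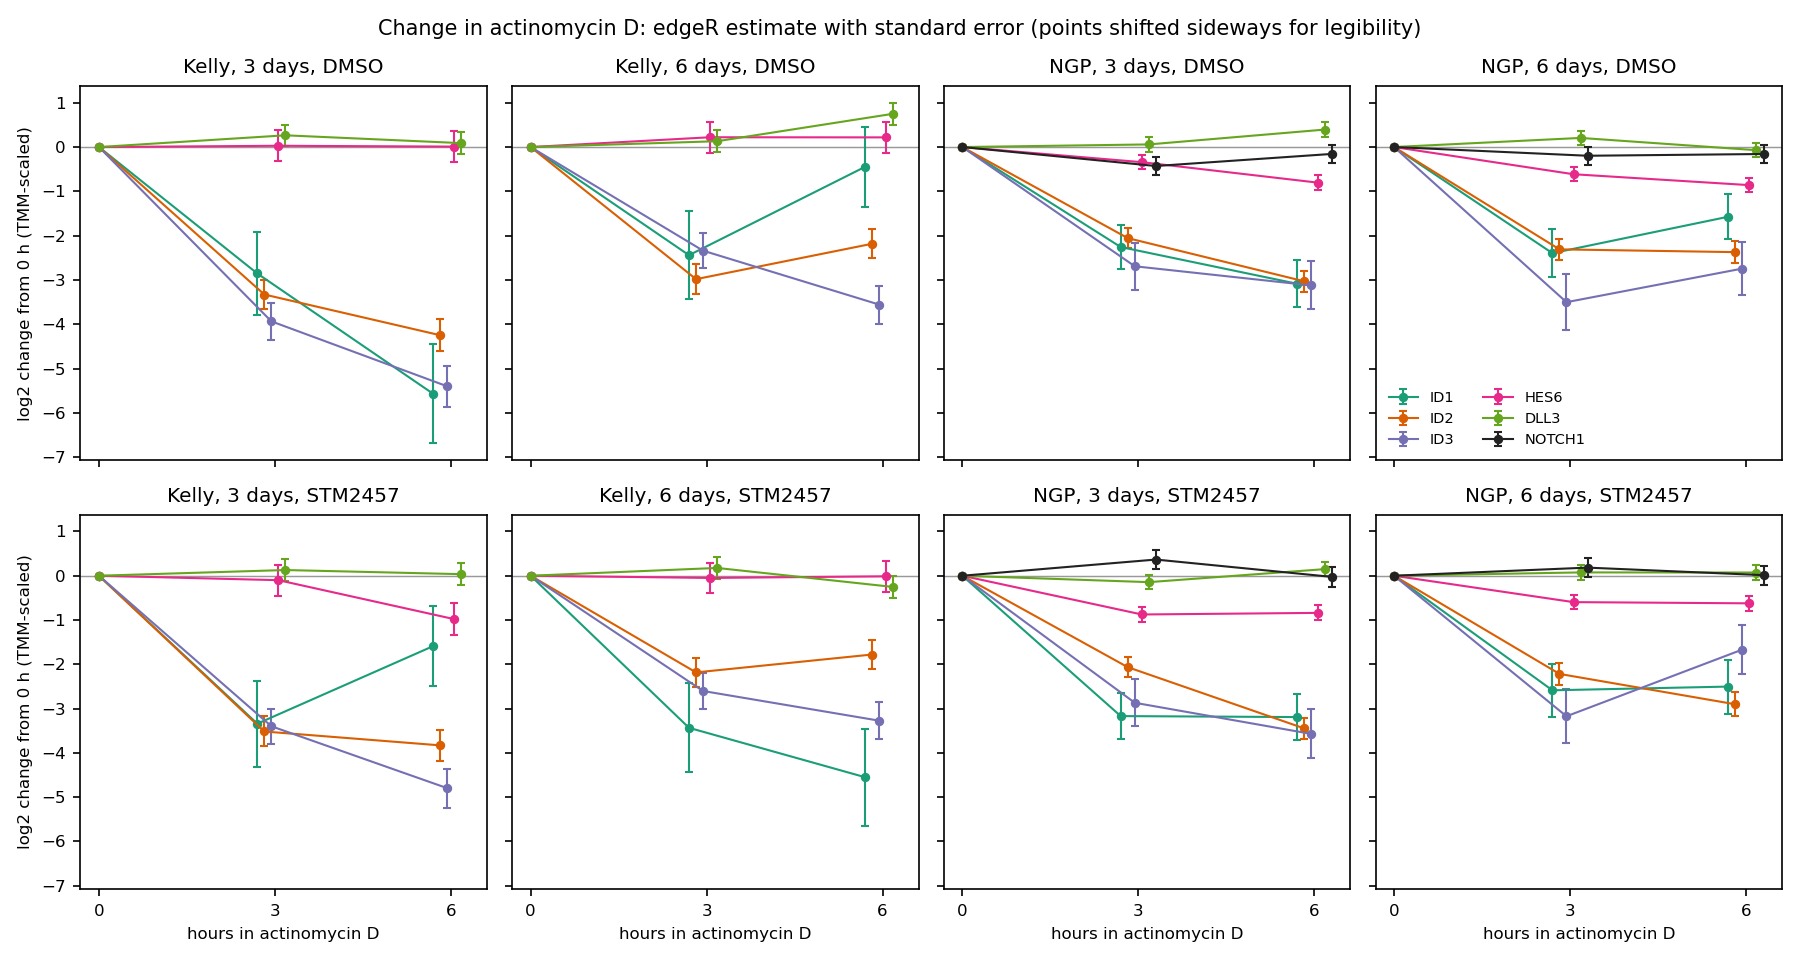
Log2 change from 0 h after 3 and 6 h of actinomycin D, with bars of 1 SE, for ID1, ID2, ID3, HES6, DLL3 and, in NGP, NOTCH1, in 8 panels by line, days and treatment. ID2 and ID3 lie well below 0 in all 8 panels (in DMSO at 6 h from −2.18 to −5.40), while DLL3 and NOTCH1 stay near 0 on this TMM scale.

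After 6 h in DMSO, 4 of the 10 genes were lower in Kelly at 3 days and 2 at 6 days, where 15.6% and 13.3% of all genes were. In NGP 5 and 6 were lower, where 18.4% and 18.7% of all genes were. DLL3 alone was called higher, in Kelly at 6 days and in NGP at 3 days, and both changes were negative with spike-in scaling. Of all genes, 14.4% and 13.2% were higher in Kelly and 19% and 18% in NGP. The median change of the 10 genes was −1.86 and −0.60 in Kelly and −1.19 and −1.74 in NGP, against −0.05 to 0.05 over all genes. The Kelly counts and medians include NOTCH1, which had few or no counts there. With STM2457, 4 and 3 of the 10 were lower in Kelly, where 14% of all genes were at each time, and 6 and 6 in NGP, where 15.9% and 16.4% were.

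ID2 and ID3 were already lower at 3 h. In DMSO, 3 and 2 of the 10 genes in Kelly and 4 and 4 in NGP were lower at 3 h, where 9.37%, 7.9%, 11.3% and 9.89% of all genes were. ID2 was −3.33 and −2.98 in Kelly and −2.06 and −2.31 in NGP at that time. ID3 was −3.94, −2.34, −2.69 and −3.50 in the same order, and −5.48 in the last of these without replicate 2 at 3 h. With STM2457 at 3 h, 3 and 3 of the 10 were lower in Kelly and 4 and 5 in NGP, where 9.28%, 7.95%, 9.86% and 8.73% of all genes were. DLL1 in NGP DMSO cells at 3 days was called at 3 h (−2.35, and not called without replicate 1 at 3 h) though not at 6 h.

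STM2457 did not change the actinomycin D response of any member past the threshold. In Kelly, NOTCH1 had few or no counts, so its tests could not decide this. At 3 h, 0 of 40 tests were called by edgeR, DESeq2 or limma-voom and 3 had an unadjusted edgeR p under 0.05, where 0.0955% and 0.0358% of all genes in Kelly and 0.0205% and 0.075% in NGP were called. Those 3 were HES6 and NOTCH1 in NGP at 3 days and HES1 in NGP at 6 days. NOTCH1 at 3 days went from 202 and 216 raw counts to 361 and 227 at 3 h with STM2457. In DMSO it went from 467 and 451 to 466 and 376. The libraries differed in depth, so raw counts alone do not give the change in level. Gene fragments went from 14789873 and 14399195 to 17978018 and 16162839 with STM2457, and from 11993189 and 12834226 to 19223925 and 14925020 in DMSO. At 6 h, 0 of 40 were called by any of the 3 tools and 5 had an unadjusted edgeR p under 0.05, where 0.221%, 0.424%, 0.703% and 2.54% of all genes were called. For NOTCH1 in NGP the 6 h change differed by 0.13 ± 0.31 at 3 days and 0.17 ± 0.29 at 6 days, STM2457 minus DMSO. Its 6 h libraries with STM2457 were 12.4 and 14.5 CPM at 3 days, against 12.7 and 14.1 CPM at 0 h. For ID2 the differences were 0.42, 0.41, −0.41 and −0.53, and for ID3 0.61, 0.28, −0.45 and 1.08. With spike-in scaling edgeR called 3 of the 40 at 6 h: HES6 in Kelly at 3 days (−1.40) and in NGP at 6 days (0.66), and ID1 in Kelly at 6 days (−3.42). On that scale, of all 16759 genes in Kelly, 43 were called higher and 2375 lower at 3 days, and 5013 and 20 at 6 days. Of 14661 in NGP, 154 were higher and 4 lower at 3 days, and 2564 and 28 at 6 days. The difference of the median gene was −0.37 and 0.70 in Kelly and 0.14 and 0.41 in NGP.

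The ID1 differences at 6 h ran opposite ways in Kelly, at 3.98 ± 1.36 at 3 days and −4.10 ± 1.40 at 6 days, neither called. They rest on few counts: the DMSO libraries at 3 days had 7 and 0 counts and the STM2457 libraries at 6 days 6 and 0. HES1 in NGP at 3 days was not called either, with an unadjusted edgeR p under 0.05. It went from 9 and 25 raw counts to 0 and 0 in DMSO, and from 93 and 61 to 23 and 28 with STM2457. Between the lines, the 6 h change in DMSO differed for 0 of 10 genes at 3 days and for 1 at 6 days, where 1.59% and 4.25% of all genes were called. NOTCH1 could not be decided here, given its few or no counts in Kelly. At 3 days, limma-voom and DESeq2 called 0 as well, and 4 of the 10 had an unadjusted edgeR p under 0.05. There edgeR called ID3 with no filter (2.29) and on 3-day libraries alone (2.30), and HES6 with spike-in scaling (−1.17), NGP minus Kelly. The gene at 6 days was HES6, by −1.05 ± 0.32, NGP minus Kelly (edgeR adjusted p = 0.0407), a call lost in 5 of 8 refits without 1 library (−1.25 to −0.85).

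Over the 24 group means, centred within each line, the genes most like each member were found by Pearson's r as a description. These groups share actinomycin D times, treatments and lines. ID2 was most like CNKSR2 (0.940) and ID3 (0.939), ID3 was most like MEIS1 (0.950), and ID1 was most like ID2 (0.886) and GFOD2 (0.884). ID4 was most like NFKBIA (0.835) and HES1 like CNKSR2 (0.856). For HES6 it was TTYH2 (0.907), for HEY1 FOXC1 (0.892), for DLL1 UBOX5 (0.899), for DLL3 MAP6 (0.807) and for NOTCH1 DNAJC18 (0.800). ID2 was in turn the next nearest gene of ID3 (0.939). No other member had a member among its 2 nearest genes.

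The other genes of the pathways were read from 6 lists, which hold no member. Of 9 further Notch ligand and receptor genes, 9 were tested in Kelly and 8 in NGP. With STM2457 at 0 h, 1 was lower in Kelly at each time, while NGP had 2 at 3 days and 1 at 6 days. Over all genes tested, 1.68% and 3.97% were called in Kelly and 3.7% and 7.99% in NGP. The list medians were 0.34, −0.08, −0.42 and −0.49. DLK1, a non-canonical ligand of the Delta family, fell in all 4 comparisons, by −0.55 ± 0.04 and −0.34 ± 0.04 in Kelly and by −0.65 ± 0.08 and −0.53 ± 0.07 in NGP. It stood at 1990 and 2017 CPM in DMSO and 1415 and 1332 CPM with STM2457 in Kelly at 3 days, and at 235 and 249 CPM against 155 and 155 CPM in NGP. JAG2, a Jagged ligand, was the other, at 59.9 and 51.7 CPM in DMSO and 35.1 and 41.2 CPM with STM2457 in NGP at 3 days (−0.56). The JAG2 call was lost with spike-in scaling (−0.46), under limma-voom, on 3-day libraries alone, and without replicate 1 of either group. The DLK1 effect in Kelly kept its call over the 8 other settings. Its size ranged from −0.56 to −0.15 at 3 days and from −0.59 to −0.34 at 6 days. With spike-in scaling the median gene differed with STM2457 at 0 h by 0.38 and −0.21 in Kelly and by 0.10 and −0.02 in NGP.

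Among 26 genes that process Notch receptors, 25 of them tested in NGP, 1 was lower in NGP at each time. Of all genes, 3.7% and 7.99% were called in NGP at 3 and 6 days, and 1.68% and 3.97% in Kelly. edgeR, DESeq2 and limma-voom called 0 in Kelly, where 2 at each time had an unadjusted edgeR p under 0.05. Those in NGP were FURIN, the protease that cuts the precursor, at −0.99 at 3 days, and POFUT1, which adds fucose to the receptor, at −0.42 at 6 days. Of 9 genes of the nuclear complex and its co-regulators, CREBBP, a co-activator, was higher in Kelly at 3 days by 0.40. edgeR called 0 of the 9 in the other comparisons, where 1 (Kelly, 6 days), 2 (NGP, 3 days) and 2 (NGP, 6 days) had an unadjusted edgeR p under 0.05, limma-voom called 0 and DESeq2 called 1, in NGP at 6 days. Of 22 BMP and SMAD genes, 20 of them tested in each line, 1 was higher in NGP at each time, SMAD9 at 0.38 and the receptor BMPR2 at 0.31. In Kelly, edgeR, DESeq2 and limma-voom called 0 of these, with 0 and 1 at an unadjusted edgeR p under 0.05. The calls of CREBBP, SMAD9 and BMPR2 were lost in each of 4 refits that left out 1 library, and those of FURIN and POFUT1 in 3 of 4. Of 9 further HES and HEY family genes, 6 were tested in Kelly and 5 in NGP, and they held 0 calls with edgeR, DESeq2 or limma-voom, and 0 unadjusted edgeR p-values under 0.05. The medians of the processing, nuclear and BMP lists lay between −0.11 and 0.21, near the median of all genes.

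The 18 E-protein and proneural genes, on whose products ID and HES proteins act, had 15 genes tested in Kelly and 14 in NGP. Of all genes, 1.68%, 3.97%, 3.7% and 7.99% were called in the 4 comparisons. In Kelly 0 of the list were higher and 1 lower at 3 days and 1 higher and 1 lower at 6 days. In NGP 0 were higher and 2 lower at 3 days and 2 higher and 2 lower at 6 days. HAND2, a regulator of the sympathetic lineage, was lower in Kelly at 3 days by −0.21, which turned to 0.19 with spike-in scaling, and higher in NGP at 6 days by 0.38. The Kelly call was lost with library-size scaling (−0.19), on 3-day libraries alone (−0.20) and in all 4 refits without 1 library. HAND2 was lower in Kelly at 6 days by −0.20, a call also lost in all 4 such refits (−0.24 to −0.21).

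NEUROD1 in NGP was 233 and 226 CPM in DMSO and 124 and 131 CPM with STM2457 at 3 days (−0.86), and −0.41 at 6 days. NEUROG2, a proneural factor upstream of it, was 74.7 and 75.1 CPM against 41.1 and 46.4 CPM at 3 days (−0.78). NHLH1, a neuronal helix-loop-helix gene, was 21.7 and 21.5 CPM against 4.22 and 1.32 CPM at 6 days (−2.95 ± 0.73), a call lost without replicate 2 of STM2457 (−2.35). TWIST1 rose in NGP at 6 days from 202 and 183 CPM to 273 and 281 CPM (0.53), and TCF3, an E protein bound by ID proteins, rose in Kelly at 6 days by 0.31, or 0.06 and not called with spike-in scaling. The TCF3 call was also lost in 3 of 4 refits without 1 library (0.22 to 0.36). NEUROG2 was not called without replicate 1 of STM2457 (−0.70), nor NEUROD1 at 6 days without replicate 1 of either group (−0.37 and −0.31).

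**Figure D4:**
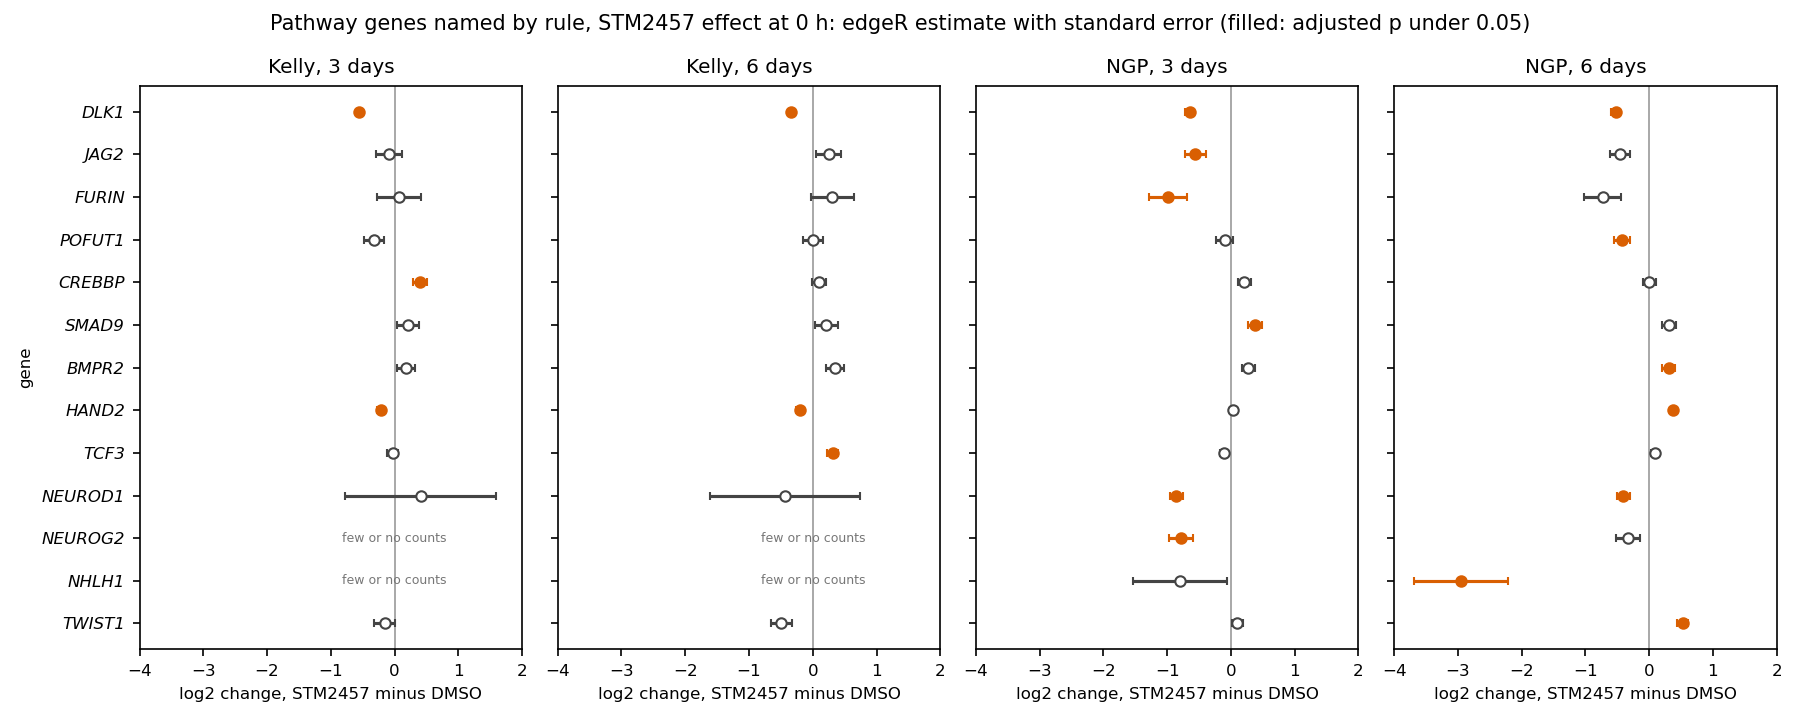
Log2 difference, STM2457 minus DMSO, before actinomycin D with bars of 1 SE, for 13 pathway genes outside the 10 members that were named by rule, in 4 comparisons. DLK1 is below 0 in all 4 (−0.34 to −0.65), and NEUROD1 is called below 0 in NGP at both times (−0.86 and −0.41).

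Under 6 h of actinomycin D in DMSO, the proneural list had 5 of 15 genes lower at each time in Kelly and 9 of 14 at each time in NGP, where 15.6%, 13.3%, 18.4% and 18.7% of all genes were. Its medians were 0 and −0.71 in Kelly and −1.89 and −1.21 in NGP. Of the 9 nuclear list genes, 6 and 8 were lower in Kelly and 5 and 6 in NGP, with medians of −1.12 and −1.11 and of −0.89 and −0.61. EP300, a co-activator of the Notch complex, fell at 3 days by −2.48 in Kelly and −2.02 in NGP, and BHLHE40, a repressor related to the HES genes, by −4.85 and −3.55. The Kelly value for BHLHE40 rests on 0 and 7 counts at 6 h and was −9.92 without replicate 2 there, which left the library at 0. Of the ligands and receptors (9 tested in Kelly, 8 in NGP), 1 was higher in Kelly at each time, and 1 was higher and 2 were lower in NGP at each time. Of all genes, 14.4% and 13.2% were higher in Kelly and 19% and 18% in NGP. DLK1 in Kelly was 0.85 higher, relative to the typical gene, and JAG1 in NGP was −0.78.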

How the data were processed

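RNA was isolated with TRIzol, selected for poly(A) tails and made into cDNA with a SMART kit, per the labels' protocols. Per the file headers, the authors counted fragments per gene with featureCounts 1.5.3 on GENCODE 33 plus the ERCC spike-ins, and the deposited values are raw counts; no header names a strand, multi-mapping or overlap option. The submitters' processing notes also name FastQC 0.11.5, Trimmomatic 0.36, HISAT2 2.1.0 and GRCh38.

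Counts were tested in R 4.3.3 with edgeR 4.0.16 (TMM scaling, quasi-likelihood test, filterByExpr with a minimum count of 10 and total of 15), in 1 fit per line (16759 genes in Kelly, 14661 in NGP) and a joint fit of both lines (17343 genes). p-values were adjusted over all genes of a comparison by the Benjamini-Hochberg method, with a threshold of 0.05. Spike-ins were left out of the fits. SE was taken from the log2 change and its F statistic. Likeness used log2 CPM with a prior count of 2 over the 14314 genes kept in both lines.

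The alternatives were DESeq2 1.42.0, limma-voom (limma 3.58.1), other scalings, no filter, fits on a single duration, a block for the replicate number, and each library left out. The fits were tested on simulated counts. The members and gene lists were chosen with earlier results of these data known. Pathway genes were named where they were among the 3 largest called changes of their list with STM2457 at 0 h, or the largest called change after 6 h of actinomycin D in DMSO at 3 days. Some genes of the lists are not reported here.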

Additional observations from a re-analysis of the deposited data

Results flagged for a closer look

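Effects of STM2457 before actinomycin D differed between durations or lines for several of the genes named, by a test of the difference itself. In NGP, the effect at 6 days minus that at 3 days was −1.04 for ID2, 0.34 for HAND2 and 0.43 for TWIST1, on the log2 scale. The HAND2 difference was lost with spike-in scaling (0.20), and that of TWIST1 with library-size scaling (0.41), with spike-in scaling (0.29) and in 6 of 8 refits that left out 1 library (0.30 to 0.55 over the 8, the lowest without replicate 2 of NGP DMSO at 3 days). ID2 lost its call in all 8 refits that left out 1 library.

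The effect in NGP minus that in Kelly at 6 days was 0.60 for HAND2 and 1.04 for TWIST1. The 6 h actinomycin D change of HES6 in DMSO cells at 6 days was −1.05, NGP minus Kelly, where the Kelly libraries stood at 15.3 and 16.8 CPM at 0 h and 16.9 and 20.6 CPM at 6 h.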

How the results depend on the processing

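Of the member results, 88 were called and 292 were not. Over the 8 other settings 668 of 696 refits kept the call and direction, 26 lost the call and 2 turned, both DLL3 with spike-in scaling. Without 1 library, 302 of 360 refits of called results kept the call and none turned. Spike-in scaling raised the member calls after 3 h of actinomycin D in DMSO from 13 to 21, after 6 h from 19 to 29 in DMSO and from 19 to 30 in STM2457, and those of the decay difference at 6 h from 0 to 3. After 6 h it gave −0.81 (STM2457, Kelly, 3 days), −0.52 (DMSO, Kelly, 6 days), −0.41 (DMSO, NGP, 3 days), −0.51 (STM2457, NGP, 3 days) and −0.55 (STM2457, NGP, 6 days) for DLL3, −1.06 for HES6 (DMSO, Kelly, 6 days) and −0.61 for NOTCH1 (STM2457, NGP, 6 days). For HAND2 in Kelly at 3 days it gave 0.19 for the STM2457 effect. It gave −0.044 for the HAND2 decay difference at 6 h there, which was called higher in the main fit (0.35 to 0.37 over left-out libraries). In NGP such differences were called for TWIST1 (0.57 to 0.81) and HAND2 (0.47 to 0.59) at 3 days. At 6 days they were called for DLK1 (−0.88 to −0.62) and NHLH1 (2.82 to 4.49), with ranges as before. Of all genes in NGP, 0.703% and 2.54% were called. With spike-in scaling the median gene moves down after actinomycin D. Over all genes, those called lower rose in number and those called higher fell, in DMSO and in STM2457. After 3 h in DMSO, those lower rose from 1570 to 6033 and from 1324 to 6904 of 16759 in Kelly. In NGP they rose from 1657 to 3766 and from 1450 to 4851 of 14661. After 6 h they rose from 2618 to 4744 and from 2228 to 10379 in Kelly. In NGP they rose from 2695 to 8014 and from 2739 to 9830. The cause of these shifts was not tested. The line difference of the 6 h change had 1 call, against 2 without a filter, 2 with DESeq2, 2 on 1 duration alone and 0 with limma-voom.

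Without 1 library the calls ranged from 0 to 1 for the decay difference at 6 h (1 without replicate 1 of Kelly STM2457 at 6 days and 6 h), 0 to 1 for the duration difference of the STM2457 effect and 0 to 2 for the line difference of the 6 h change. They ranged from 2 to 3 for STM2457 at 0 h, 8 to 9 between the lines (10 with all libraries) and 17 to 21 after 6 h in DMSO. Same-numbered libraries showed no shared deviation (median r of −0.0005 in Kelly and −0.0015 in NGP, with 0 of 66 pairs of groups over 0.1 in each). That check cannot tell whether same-numbered libraries were handled together, which the labels do not say. With the replicate block, 378 results kept their side of the threshold and 2 did not. ID1 between 6 and 3 days in Kelly became called (−2.67) and DLL1 between the lines at 6 days was lost (1.76). Members with few counts, such as HES1, ID4 and DLL1, allowed only wide errors.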

Other observations

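NOTCH2 and NOTCH3 also differed between the lines, while NOTCH4 was not called (0.67 ± 0.98 at 3 days and 0.20 ± 0.96 at 6 days, NGP minus Kelly, edgeR adjusted p = 0.713 and 0.959). These genes were chosen after their values were seen. NOTCH3 in DMSO before actinomycin D was 6.64 and 4.56 CPM in Kelly at 3 days and 15.4 and 15.5 CPM at 6 days, against 0.703 and 0 CPM and 0.111 and 0 CPM in NGP. NOTCH2 was 0.725 and 1.14 CPM and 1.87 and 1.95 CPM in Kelly, with 0 counts in all 4 NGP libraries. The line with NOTCH1 thus had the lower NOTCH2 and NOTCH3 levels, and the libraries of the lines did not overlap for any of the 3.

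JAG1, a ligand, was like NOTCH1 higher in NGP than in Kelly, though it did not rise with time in NGP as NOTCH1 did. It was 42.0 and 42.2 CPM in NGP at 3 days and 34.1 and 32.2 CPM at 6 days, against 2.66 and 2.89 CPM and 8.08 and 5.14 CPM in Kelly. The log2 differences, NGP minus Kelly, were 3.92 ± 0.42 (edgeR adjusted p = 1.82e-12) and 2.32 ± 0.38 (edgeR adjusted p = 5.82e-07).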
